A study of Mus musculus with 4 samples.

Results

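The Hox genes measured in macrophages grown from mouse bone marrow are described here, in cells with and without Hem1. Members were all genes whose annotated symbol is Hoxa, Hoxb, Hoxc or Hoxd followed by a number, which gave 33 of the 19505 genes measured: 8 Hoxa, 9 Hoxb, 9 Hoxc and 7 Hoxd genes, each with 1 probe set. RefSeq (GRCm38.p6) lists 39 such mouse genes, and the others were not analysed here.

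The Hem1 KO group held 2 arrays and the WT group 2 arrays, each from a distinct mouse of that genotype. Hem1, encoded by Nckap1l, is the blood-cell subunit of the WAVE complex, which drives branched actin assembly. Marrow cells from femurs were turned into macrophages over 8 days in RPMI that held 10% fetal calf serum and 20% medium from L929 fibroblasts, which secrete CSF1, the growth factor of macrophages. The sources used here do not give the mice's strain, age or sex, or say which part of Nckap1l was removed and in which cells. The cultures were measured in bulk, so fewer cells of a type and less RNA per cell cannot be told apart.

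Hox genes encode homeodomain transcription factors that give cells their position along the body axis, and in mammals they lie in 4 clusters, numbered from the anterior paralogs at one end to the posterior ones at the other. In blood formation they act mainly in stem and progenitor cells, where Hoxa and Hoxb genes are most used, and most are turned down as myeloid cells mature. Mesenchymal cells such as fibroblasts and marrow stroma keep a Hox pattern that reflects their place in the body. The proteins bind DNA together with cofactors of the PBX and MEIS families.

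Values are log2 intensities as deposited, and differences are Hem1 KO minus WT on that scale with limma's standard error (SE). A gene was called at a Benjamini-Hochberg adjusted p under 0.05 over all 19505 genes. Each array's background was set from 1448 chemosensory receptor genes (olfactory, vomeronasal or taste), known mainly from sensory cells: it was their 95th percentile, at 6.04 and 5.38 on the Hem1 KO arrays and 5.88 and 5.51 on the WT arrays (replicates 1 and 2). The arrays were offset against each other, with medians over all genes of 6.95 and 6.49 on the Hem1 KO arrays and 6.82 and 6.42 on the WT arrays. Nckap1l itself read 10.04 and 9.62 in Hem1 KO and 11.37 and 11.11 in WT macrophages (difference -1.41, SE 0.32, adjusted p = 0.0467 by limma, a call that ended without Hem1 KO replicate 2, at -1.20, without WT replicate 1, at -1.28, or without WT replicate 2, at -1.54, and among the brighter genes alone, with an adjusted p of 0.0761). The macrophage markers Adgre1, Csf1r, Itgam, Mrc1, Spi1, Mertk, Fcgr1 and Cd14 were above background on all 4 arrays.

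Most Hox genes lay near background. Of the 33, 15 were above it on all 4 arrays, 11 on none and 7 on some, and 21 and 20 were above it on the Hem1 KO arrays against 16 and 19 on the WT arrays. Over all genes, 65.3% and 67.0% were above background on the Hem1 KO arrays and 64.5% and 64.5% on the WT arrays. With background at the 99th percentile of the receptor genes, 3 Hox genes were above it on all 4 arrays and 21 on none. No Hox gene exceeded 8.01 on any array, and the lowest value was 3.32, for Hoxb13.

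**Figure D1:**
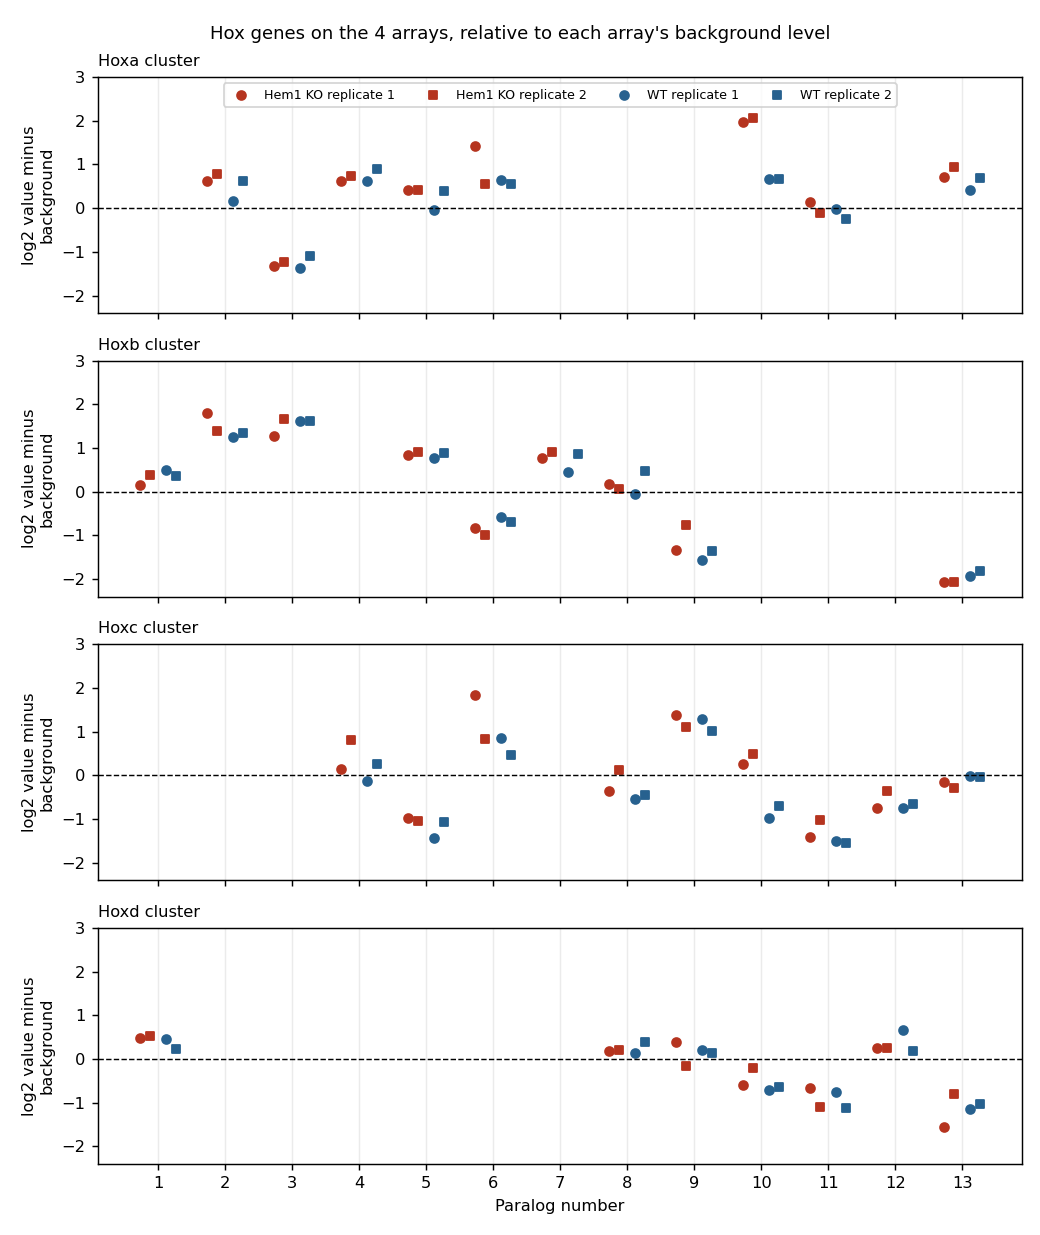
Values of the 33 Hox genes on each array, plotted by paralog number in 1 panel per cluster. The vertical axis is the log2 value minus that array's background level (dashed line at 0), red symbols are the Hem1 KO arrays and blue symbols the WT arrays, circles are replicate 1 and squares replicate 2. Hoxa10 stands at 1.96 and 2.07 in Hem1 KO and 0.66 and 0.67 in WT, and Hoxc10 lies above background only in Hem1 KO.

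Limma called 0 of the 33 Hox genes higher, against 1.48% of all genes, and 0 lower, against 0.133%. At an unadjusted p under 0.05, 2 were higher, against 3.63% of all genes, and 0 were lower, against 1.57%. These were Hoxa10 and Hoxc10, at ranks 341 and 380 by p among all genes. At a looser adjusted p under 0.10 the same 2 Hox genes were higher, against 1.77% of all genes.

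Hoxa10 acts in blood progenitors, where it can hold back myeloid differentiation, and in the patterning of the uterus and hindlimb. It read 8.01 and 7.46 in Hem1 KO macrophages, against 6.54 and 6.18 in WT macrophages. Both Hem1 KO arrays were above both WT arrays, and all 4 were above background. The fitted fold was 2.59 (difference 1.37, SE 0.33, 95% confidence interval 0.65 to 2.09), with an adjusted p of 0.0688 by limma. Measured from each array's own background, Hoxa10 stood at 1.96 and 2.07 in Hem1 KO and at 0.66 and 0.67 in WT macrophages, so that the replicates lay closer together than in the deposited values.

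Hoxc10, which takes part in hindlimb and lumbar spinal cord patterning, read 6.30 and 5.87 in Hem1 KO macrophages, against 4.89 and 4.80 in WT macrophages. Both WT values were below background and both Hem1 KO values above it, so the fold is a bound of at least 1.31. This holds for background at the 95th percentile of the receptor genes. At their 99th percentile, 6.92 and 6.17 on the Hem1 KO arrays, both Hem1 KO values were below background too and no bound could be set. The fitted difference was 1.24 (SE 0.32, 95% confidence interval 0.55 to 1.93, adjusted p = 0.0974 by limma). It stood 0.26 and 0.48 above background on the Hem1 KO arrays and -0.98 and -0.71 from it on the WT arrays.

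The calls of both genes turned on how the arrays were scaled and modelled. With the arrays as deposited and the replicate number as a block, limma called Hoxa10 (adjusted p = 0.000737) and Hoxc10 (adjusted p = 0.00215), and with a prior that followed intensity it called Hoxa10 (adjusted p = 0.0343) but not Hoxc10 (adjusted p = 0.155). With each array centred on its median, limma called Hoxa10 (difference 1.27, adjusted p = 0.0106) and Hoxc10 (1.14, adjusted p = 0.0263), and after quantile normalization Hoxa10 (1.31, adjusted p = 0.0224) and Hoxc10 (1.12, adjusted p = 0.0356). Centring on the receptor genes, an alternative chosen after seeing the data, gave adjusted p-values of 0.0127 for Hoxa10 and 0.0217 for Hoxc10. These 2 were the only Hox genes called higher under each of those 3 scalings, against 2.05%, 1.61% and 1.97% of all genes, and 0 were called lower, against 0.359%, 0.082% and 0.236%. Median centring moved the median difference of all genes from 0.01 to -0.09, so relative to that median the differences of both genes stayed as they were. When any single array was left out both stayed higher, by 1.10 to 1.65 for Hoxa10 and 1.02 to 1.46 for Hoxc10, and both passed the threshold only without Hem1 KO replicate 2. Over all alternatives the adjusted p ran from 0.000737 to 0.617 for Hoxa10 and from 0.00215 to 0.616 for Hoxc10.

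**Figure D2:**
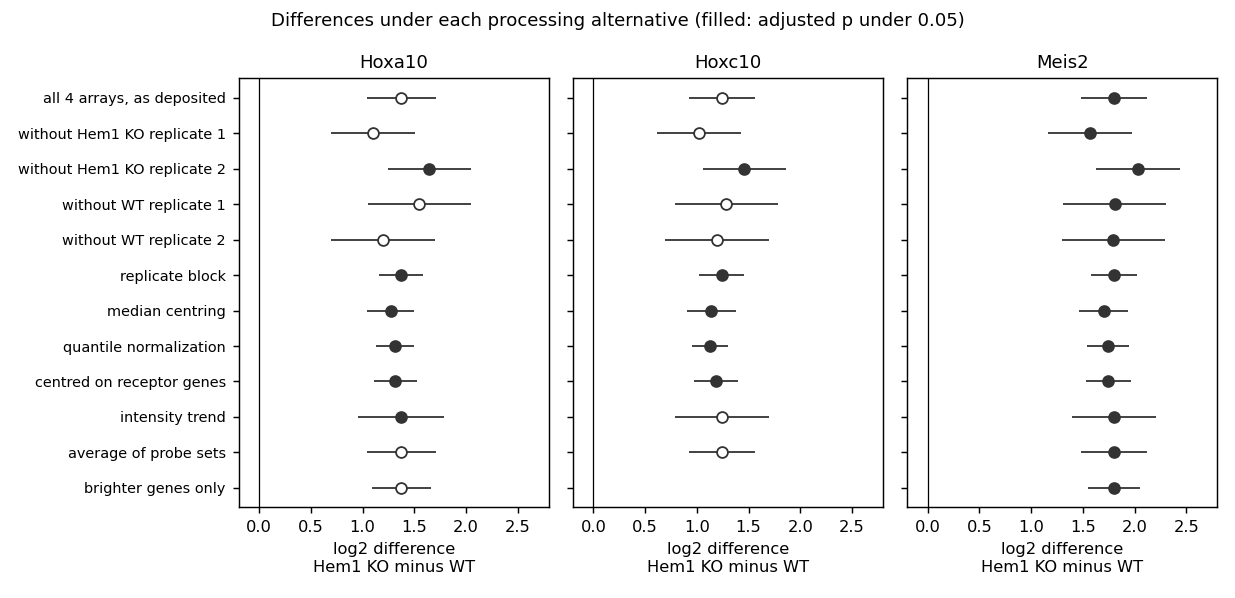
The log2 difference (Hem1 KO minus WT, horizontal axis) of Hoxa10, Hoxc10 and the cofactor gene Meis2 with all 4 arrays as deposited and under each alternative, with limma's SE as bars. Filled symbols have an adjusted p under 0.05. In the rows that leave out a single array these genes share the same SE, so a fill there reflects the difference alone. Hoxa10 and Hoxc10 stay above 1 throughout while their calls change, and Meis2, at 1.57 to 2.03 over the alternatives, is filled in every row. Hoxc10 has no point among the brighter genes, from which it was filtered out.

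The promoters of Hoxa10 are shown because this gene had the smallest p of the cluster members. RefSeq gives it a pair of start sites, and each sequence runs from 250 bases before the start to 50 after it (GRCm38.p6, chr6:52240805-52241104 and chr6:52234890-52235189, both on the minus strand), with CpG dinucleotides in capitals.
Hoxa10 upstream start: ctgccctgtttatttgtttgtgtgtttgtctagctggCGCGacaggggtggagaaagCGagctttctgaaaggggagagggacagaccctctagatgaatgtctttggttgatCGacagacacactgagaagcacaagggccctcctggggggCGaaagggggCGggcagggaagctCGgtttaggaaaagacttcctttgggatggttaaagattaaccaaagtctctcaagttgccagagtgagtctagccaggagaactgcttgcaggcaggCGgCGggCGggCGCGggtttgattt
Hoxa10 downstream start: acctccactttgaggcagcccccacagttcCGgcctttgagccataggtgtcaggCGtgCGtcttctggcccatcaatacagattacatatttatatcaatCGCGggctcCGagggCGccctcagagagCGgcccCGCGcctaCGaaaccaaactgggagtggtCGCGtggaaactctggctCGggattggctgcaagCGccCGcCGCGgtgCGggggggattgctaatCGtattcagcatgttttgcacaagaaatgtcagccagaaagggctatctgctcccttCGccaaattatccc
They hold 12 and 21 CpGs. Across the 19 promoters that the RefSeq table lists for 17 of the measured Hox genes, the median was 20 CpGs in 300 bases and a GC content of 60.3%, against 7 CpGs and 52.7% over all 32851 promoters of the table. A PBX-HOX motif, TGATTNAT on either strand, was found in 2 of the 19 (those of Hoxa2 and 1 start of Hoxd11) and in 3.22% of all promoters, and in neither of the printed ones. The MEIS motif TGACAG, also on either strand, was found in 2 of the 19 and 19.2% of all. The letters TATAAA of the TATA box, on either strand and anywhere in the 300 bases, were found in 3 of the 19 and 13.6% of all. The downstream start of Hoxa10 was among the 3 only through the opposite strand, as tttata in the printed sequence. No TATA box in the direction of that gene is shown by this match. TATAAA and TGATTNAT matches can share bases, and a match is a description of the letters only.

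Hoxa10 and Hoxc10 each lie beside a gene of the miR-196 family, and so do Hoxa9, Hoxb9, Hoxb13 and Hoxc9. The differences of Hoxb9, Hoxb13 and Hoxc9 were 0.43, -0.18 and 0.10, without a call, and Hoxa9 was not analysed. In RefSeq order Mir196b lies between Hoxa9 and Hoxa10, and Mir196a-2 lies between Hoxc10 and Hoxc9, while the other copy, Mir196a-1, lies between Hoxb13 and Hoxb9. The mature forms are shown because Hoxa10 and Hoxc10 sit beside a copy, with the seed (bases 2 to 8) in capitals.
miR-196a-5p: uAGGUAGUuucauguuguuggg
miR-196b-5p: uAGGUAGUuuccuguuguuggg
They share 1 seed. The levels of these miRNAs were not analysed here. Hoxb8, whose mRNA miR-196 is known to cleave, read 6.21 and 5.45 in Hem1 KO and 5.83 and 5.999 in WT macrophages. Its difference was -0.08 (SE 0.34, 95% confidence interval -0.82 to 0.66) and its arrays overlapped.

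The third measured gene of paralog group 10, Hoxd10, a hindlimb motor neuron gene, read 5.45 and 5.18 in Hem1 KO and 5.17 and 4.87 in WT macrophages, below background on all 4 arrays (difference 0.30, SE 0.32). Its closest arrays, 5.18 in Hem1 KO and 5.17 in WT, nearly met, and an order among values below background says little.

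Of all 33 Hox genes, 8 were higher without overlap, against 12.5% of all genes, and 0 were lower without overlap, against 13.3%. Beside paralog group 10 these were Hoxa2, Hoxa13, Hoxb9, Hoxc4 and Hoxc8, with differences of 0.29 to 0.43 and no call. Hem1 KO replicate 1 gave the highest of the 4 values for 27 of the 33 genes, and WT replicate 1 for 5. With the arrays centred on the receptor genes, 8 Hox genes were higher without overlap, against 16.1% of all genes, with Hoxc11 in place of Hoxc4. On that scale 5 were lower, against 20.2%: Hoxa4, Hoxb1, Hoxb3, Hoxb6 and Hoxb13. The median difference of the Hox genes was 0.18, against 0.01 for all genes and 0.07 for the receptor genes. Of the 33 Hox genes, 21 (63.6%) lay above 0, against 51.8% of all genes and 66.9% of the receptor genes. Without Hem1 KO replicate 1 the Hox median was -0.22, against -0.18 for all genes, and 10 of the 33 lay above 0.

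**Figure D3:**
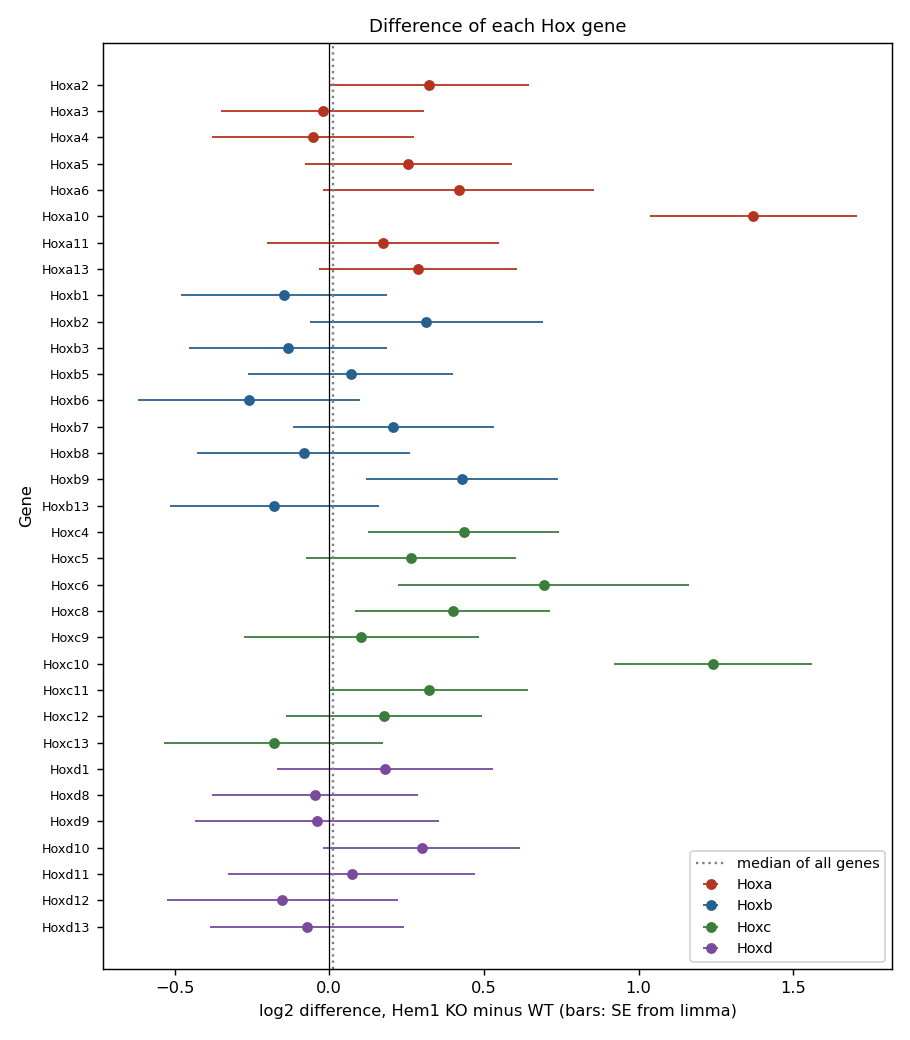
The log2 difference (Hem1 KO minus WT, horizontal axis) of each of the 33 Hox genes, ordered by cluster and paralog number, with limma's SE as bars and colours for the clusters. The dotted line is the median of all genes, 0.01. Hoxa10 at 1.37 and Hoxc10 at 1.24 stand apart from the other 31, which lie between -0.26 and 0.69.

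By cluster, the median difference was 0.27 for Hoxa on chromosome 6, -0.08 for Hoxb on chromosome 11, 0.32 for Hoxc on chromosome 15 and -0.04 for Hoxd on chromosome 2. Of the Hoxa genes 6 of 8 lay above 0, of the Hoxb genes 4 of 9, of the Hoxc genes 8 of 9 and of the Hoxd genes 3 of 7. The Hoxc median was 0.22, 0.24 and 0.27 under the 3 scalings and 0.04 without Hem1 KO replicate 1, and the Hoxa median was 0.17, 0.16 and 0.22 under the scalings and -0.18 without that array. The Hoxb and Hoxd medians were 0.30 and 0.43 with Hem1 KO replicate 2 left out. They were 0.10 and 0.27 with WT replicate 1 left out. The median of all genes moved too, to 0.21 and 0.16 in those fits, so a sign alone does not describe a cluster. With all 4 arrays Hoxb and Hoxd lay under all genes. Both lay above them once Hem1 KO replicate 2 was dropped, but only Hoxd did once WT replicate 1 was. When Hem1 KO replicate 1 was dropped, all genes had a median of -0.18, level with Hoxa and under Hoxc. Along the axis, paralogs 1 to 3 had a median of 0.08 (6 genes), paralogs 4 to 8 of 0.23 (12 genes) and paralogs 9 to 13 of 0.17 (15 genes). These medians are descriptions of genes that share the same 4 arrays.

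Among the anterior genes, those that act in the hindbrain and the branchial arches, Hoxb3 read 7.31 and 7.06 in Hem1 KO and 7.50 and 7.14 in WT macrophages (difference -0.13, 95% confidence interval -0.82 to 0.56). Hoxb2 read 7.85 and 6.78 in Hem1 KO and 7.14 and 6.87 in WT macrophages (0.31, interval -0.50 to 1.13). For both the genotypes overlapped. Hoxb1, a gene of the fourth hindbrain segment, read 6.19 and 5.78 in Hem1 KO and 6.38 and 5.88 in WT macrophages. Hoxa2, which patterns the second branchial arch, read 6.65 and 6.17 in Hem1 KO and 6.05 and 6.13 in WT macrophages. The second Hem1 KO value of Hoxa2 was only just above the WT values. Hoxd1, known in mice for pain-sensing neurons, read 6.52 and 5.91 in Hem1 KO and 6.33 and 5.74 in WT macrophages, where replicate 1 was the higher array of each genotype. Hoxa3, which acts in thymus and parathyroid formation, was below background on all arrays, at 4.16 to 4.72.

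In the central part of the clusters, Hoxb5, a mark of long-term blood stem cells in mice, read 6.88 and 6.31 in Hem1 KO and 6.64 and 6.40 in WT macrophages (difference 0.07, 95% confidence interval -0.65 to 0.79). Hoxb7 read 6.82 and 6.31 in Hem1 KO and 6.33 and 6.38 in WT macrophages. Hoxa4 read 6.67 and 6.12 in Hem1 KO and 6.50 and 6.41 in WT macrophages. In the deposited values of all 3 genes Hem1 KO replicate 1 was the highest array and Hem1 KO replicate 2 the lowest, an order that follows the background levels of these arrays. Measured from background, Hem1 KO replicate 2 was the highest array for Hoxb5 and Hoxb7, both at 0.92, and WT replicate 2 for Hoxa4, at 0.89. Hoxa5, a gene of lung development, read 6.45 and 5.81 in Hem1 KO and 5.84 and 5.92 in WT macrophages, and was below background on WT replicate 1. Hoxd8 read 6.22 and 5.60 in Hem1 KO and 6.002 and 5.91 in WT macrophages. As deposited, both again had their highest and lowest value on the 2 Hem1 KO arrays.

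Hoxc6 and Hoxa6 were high on 1 array. Hoxc6, a gene of the thoracic region, read 7.88 and 6.22 in Hem1 KO and 6.74 and 5.98 in WT macrophages (difference 0.69, SE 0.47, with an unadjusted p of 0.164 by limma). Its difference was 1.52 without Hem1 KO replicate 2, where it was called by a fit that gave each Hox gene the same SE. Without Hem1 KO replicate 1 its difference was -0.13. Under each alternative other than the fit without Hem1 KO replicate 2, its adjusted p by limma was 0.182 or more. Hoxa6 read 7.47 and 5.95 in Hem1 KO and 6.52 and 6.07 in WT macrophages, with a difference of 0.42 that was -0.35 without Hem1 KO replicate 1. For both genes the second Hem1 KO array lay within or below the WT range.

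Hoxc4, known in activated lymphocytes, read 6.18 and 6.20 in Hem1 KO and 5.74 and 5.77 in WT macrophages, a difference of 0.43 (SE 0.31, 95% confidence interval -0.23 to 1.10) that was not called. Measured from each array's background it stood at 0.14 and 0.82 in Hem1 KO and -0.14 and 0.26 in WT macrophages, so on that scale the replicates lay apart and the genotypes overlapped. Hoxc8, which patterns the thoracic skeleton, read 5.68 and 5.51 in Hem1 KO and 5.33 and 5.06 in WT macrophages, above background on Hem1 KO replicate 2 alone. Hoxb6 and Hoxc5 lay below background on all arrays, at 4.33 to 5.29.

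Of the posterior genes, which pattern the lower trunk, limbs and urogenital tract, Hoxc9 read 7.42 and 6.48 in Hem1 KO and 7.16 and 6.53 in WT macrophages (difference 0.10, SE 0.38). Hoxa13 read 6.76 and 6.32 in Hem1 KO and 6.30 and 6.21 in WT macrophages (0.29, SE 0.32). Hoxc9 overlapped between the genotypes, and Hoxa13 did not, with its closest arrays at 6.32 in Hem1 KO and 6.30 in WT. Hoxd12 read 6.30 and 5.63 in Hem1 KO and 6.54 and 5.69 in WT macrophages. Hoxd9 read 6.42 and 5.23 in Hem1 KO and 6.08 and 5.65 in WT macrophages, below background on Hem1 KO replicate 2. Hoxa11, needed for the uterus and the forearm, read 6.19 and 5.27 in Hem1 KO and 5.86 and 5.26 in WT macrophages, above background on Hem1 KO replicate 1 alone. The remaining 8 posterior genes were Hoxb9, Hoxb13, Hoxc11, Hoxc12, Hoxc13, Hoxd10, Hoxd11 and Hoxd13, all below background on every array.

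The Hoxc cluster lies on the chromosome of Nckap1l, and the genes between them are described here too. In RefSeq order 10 protein-coding genes lie between Hoxc4 and Nckap1l, of which 9 were measured. Limma called 0 of them and their median difference was -0.03. Without adjustment, 0 had a p under 0.05. The smallest p belonged to Cbx5, a heterochromatin protein gene that read 8.74 and 9.29 in Hem1 KO and 8.61 and 8.74 in WT macrophages (0.34, SE 0.33), and to Gpr84, a fatty acid receptor gene that read 5.52 and 5.43 in Hem1 KO and 5.50 and 4.86 in WT macrophages (0.30, SE 0.33). Hoxc4, the Hox gene nearest to Nckap1l in that order, stood at 0.43, and Hoxc13, the farthest, at -0.18. From Hoxc4 towards Hoxc13 the differences were 0.26 for Hoxc5, 0.69 for Hoxc6, 0.40 for Hoxc8 and 0.10 for Hoxc9. They were 1.24 for Hoxc10, 0.32 for Hoxc11 and 0.18 for Hoxc12. The order carries no distances, and an effect of the mutated gene on its neighbours was not tested.

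**Figure D4:**
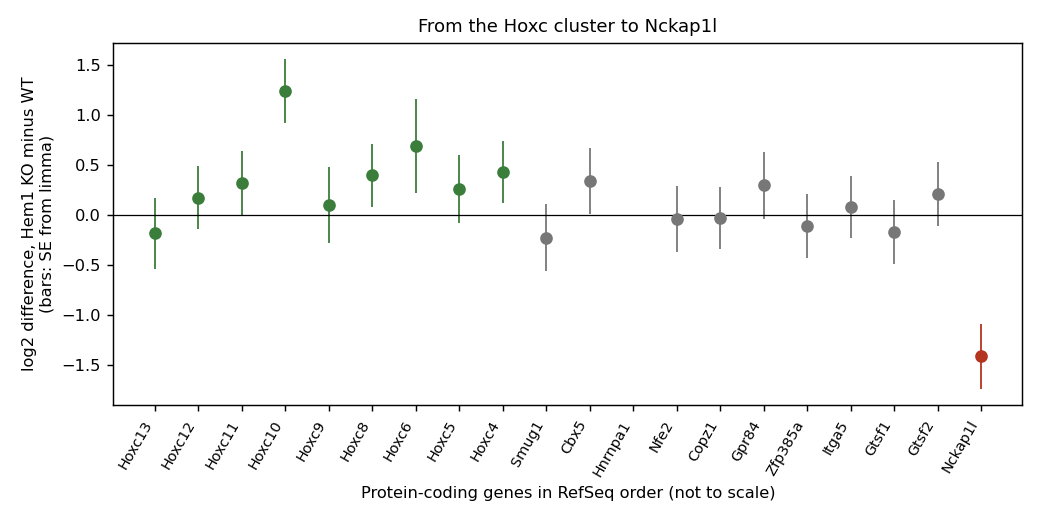
The log2 difference (Hem1 KO minus WT, vertical axis) with limma's SE as bars, for the protein-coding genes from Hoxc13 to Nckap1l in RefSeq order, without a distance scale. Green marks the Hoxc genes, grey the genes between, red Nckap1l at -1.41. Hnrnpa1 has no value here, and the 9 measured genes between Hoxc4 and Nckap1l lie between -0.22 and 0.34.

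Among the Hox cofactors, Meis2 rose. This gene, whose protein binds DNA with Hox and PBX proteins, read 8.36 and 7.90 in Hem1 KO macrophages, against 6.33 and 6.32 in WT macrophages. The genotypes did not overlap, all 4 values were above background, and the fold was 3.48 (difference 1.80, SE 0.32, adjusted p = 0.00929 by limma). The call held under every alternative with all 4 arrays, at an adjusted p of 6.52e-05 to 0.0336 by limma. When single arrays were left out the difference was 1.57 to 2.03. Meis2 was 1 of 8 measured cofactor genes called higher, against 1.48% of all genes, with 0 lower and a median over the list of 0.11. The related Meis1, which works with Hoxa9 in progenitors, read 6.55 and 6.08 in Hem1 KO and 6.19 and 5.78 in WT macrophages and was not called. Pbx2, with the second smallest p, read 9.06 and 9.01 in Hem1 KO and 9.81 and 9.51 in WT macrophages (-0.63, SE 0.31).

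Chromatin and retinoid regulators of Hox genes gave no call. Of 24 measured, limma called 0, and the median difference was 0.01. Before adjustment 0 higher genes and 1 lower gene had a p under 0.05, against 3.63% and 1.57% of all genes. The histone methyltransferase gene Dot1l, which MLL fusion proteins use to activate Hoxa genes, read 8.62 and 7.83 in Hem1 KO and 9.004 and 8.98 in WT macrophages (-0.76, SE 0.34). The polycomb gene Suz12, whose complex silences Hox clusters, read 6.66 and 6.71 in Hem1 KO and 7.58 and 6.64 in WT macrophages (-0.43, SE 0.36), with the WT arrays apart from each other.

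The ParaHox and Evx genes, relatives of the Hox genes, had 0 of 8 called by limma, and 0 passed 0.05 before adjustment (median 0.01). Those with the smallest p were Gsx1 (-0.26, SE 0.32) and Cdx2 (0.29, SE 0.36), below background on all arrays. Of 16 noncoding genes of the clusters in RefSeq 2 were measured, Hoxa11os (0.30, SE 0.35) and Hoxd3os1 (0.38, SE 0.34), and both were below background on all arrays.

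Markers of stromal cells moved in the same direction as Hoxa10, Hoxc10 and Meis2. Of 9 measured, 6 were called higher, against 1.48% of all genes, and 0 lower, against 0.133%. Those called were Col1a1, Col1a2, Col3a1, Pdgfrb, Cxcl12 and Acta2. On the linear scale the summed level of all 9 was 10848 and 8280 on the Hem1 KO arrays and 3012 and 2201 on the WT arrays. Of the 9, 7 and 7 were above background on the Hem1 KO arrays against 7 and 6 on the WT arrays. Lum and Thy1 were below background on all 4. The part of these cells in the differences of Hoxa10, Hoxc10 and Meis2 was not tested.

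Markers of blood progenitors, the cells in which Hox genes are best known in marrow, had 0 of 9 called by limma. At 0.05 before adjustment 2 were higher, against 3.63% of all genes. The 2 markers were Sox4, at 8.58 and 7.84 in Hem1 KO and 7.24 and 7.20 in WT macrophages, and Cd34, at 6.28 and 7.30 in Hem1 KO and 6.14 and 5.39 in WT macrophages. The summed level was 957 and 743 on the Hem1 KO arrays and 633 and 522 on the WT arrays, and 5 and 6 of 9 markers were above background against 5 and 5. Sox4, the brightest of these markers on each array, weighs most in this sum. The median difference over the list was 0.18, and 3 of the 9 were below background on all arrays. Of 6 endothelial markers limma called 1 higher, against 1.48% of all genes, and 1 lower, against 0.133%. Cdh5 was the higher one (at least 1.86-fold with background at the 95th percentile, adjusted p = 0.00622 by limma). At the 99th percentile of the receptor genes, 6.92 on Hem1 KO replicate 1, Cdh5 at 6.25 was below background on that array. Vwf was the lower one (difference -1.52, adjusted p = 0.0227 by limma). The summed levels of the 6 were 564 and 541 on the Hem1 KO arrays and 725 and 390 on the WT arrays. The 8 measured macrophage markers lay under 0, with a median of -0.34 and 0 called by limma. Of the 8, 1 was lower at 0.05 before adjustment, against 1.57% of all genes. Of them Fcgr1 read -0.74 (SE 0.34) and Adgre1 -0.44 (SE 0.31). Whether any of these marker levels bears on the Hox values was not tested.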

How the data were processed

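The authors deposited log2 values of 4 arrays. The submitters' processing notes name RMA, without version or settings, the log2 scale was read from the values, and no source used here names a genome build. The table has 29129 rows, of which 19572 pair with 1 gene in GEO's platform annotation and 9557 with none. For 55 genes with several probe sets the brightest by mean was kept. R 4.3.3 and limma 3.58.1 served to fit the 19505 genes (lmFit and eBayes, genotype as the only term, two-sided, Benjamini-Hochberg adjustment), and the fit was tested on simulated data. With 2 arrays a genotype, the smallest two-sided p of an exact permutation test is 0.333, and limma's moderated test borrows spread from all genes (11.2 prior degrees of freedom). The number of arrays limits the precision. A fold written "at least" sets the brighter group's mean against the higher of background and measured value on each dim array.

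The members, lists and naming rule (every Hox gene above background on an array or with an unadjusted p under 0.05, and per list the called genes up to 6 or the 2 with the smallest p) were chosen with earlier results of these data known. Meis1, the noncoding genes and the Hox genes below background named in the text were added after their values were seen. Alternatives left out each array, used the replicate number as a block, rescaled the arrays, filtered dim genes, let the prior follow intensity, averaged probe sets, or changed the threshold or background. Promoter and miRNA sequences are RefSeq's (GRCm38.p6).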

Additional observations from a re-analysis of the deposited data

How the results depend on the processing

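The count of Hox genes called higher, 0 with all arrays as deposited, was 2 after median centring, quantile normalization or centring on the receptor genes, 2 at an adjusted p under 0.10 and 1 when the prior followed intensity (Hoxa10), and ran from 0 to 3 when single arrays were left out. The count called lower was 0 throughout. With the replicate number as a block it was 2 higher (Hoxa10, adjusted p = 0.000737, and Hoxc10, 0.00215). The labels say nothing of a shared litter or day, with only 2 mice a genotype, so the numbers are not taken as pairing the mice. The replicate differences of the genotypes correlated at 0.24 across genes and had the same sign in 74.97% of genes. In both genotypes replicate 1 had the higher median over all genes, an offset that a correlation does not register. Whether the replicates share a batch was not tested. The median of the Hox genes ran from -0.22 to 0.46 over the fits without 1 array, and that of all genes from -0.18 to 0.21. In these fits limma gave the Hox genes, Meis2 and Nckap1l the same SE, 0.40 without a Hem1 KO array and 0.50 without a WT array. A call there reflects the size of the difference alone and not the gene's own spread. Only 5 Hox genes were among the brighter genes. Of 401 alternative values of single Hox genes, 39 changed sign without a call. The block, trend, threshold, probe set and filtering alternatives keep each difference, so no sign could change there. Of the 33 Hox genes, 11 changed sign without Hem1 KO replicate 1 and 10 without Hem1 KO replicate 2. Without WT replicate 1 it was 8, and without WT replicate 2 it was 6.

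Over all genes, 288 were called higher and 26 lower. Higher calls ran from 185 to 545 and lower ones from 26 to 101 without 1 array. They were 620 and 199 with the block, 136 and 4 among the brighter genes and 166 and 8 at an adjusted p under 0.01. Lower calls were 70 after median centring, 16 after quantile normalization, 205 with the intensity trend and 46 with centring on the receptor genes. Why the counts differ was not tested.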
